A study of Rattus norvegicus with 8 samples.

Results

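The MHC class II genes of the rat were followed across the cells of the injured spinal cord. The members were chosen by symbol: RT1-Da, RT1-Db1, RT1-Ba, RT1-Bb, RT1-DMa, RT1-DMb, Cd74 and Ciita, which are 8 of the 32623 genes in the count tables. The study profiled single cells of the spinal cord of female Wistar rats, 8 weeks old, with droplet-based 3′ RNA sequencing. Sham rats had a laminectomy alone. In the injured rats a weight of 10 g fell on the exposed cord at T9, from 12.5 mm (mild), 25 mm (moderate) or 50 mm (severe). The 4 groups held 2 libraries each, all taken 7 days after surgery, from a 10 mm segment around the lesion in the injured rats, and all rats had received buprenorphine and cefazolin. The labels do not say whether the 2 libraries of a group came from separate rats, while the study's text speaks of 8 sequenced cords, which is 1 per library. The tests below measure the spread between these libraries.

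MHC class II molecules present peptides from material taken up by a cell to CD4+ T cells. Each molecule is a pair of an alpha and a beta chain: RT1-Da with RT1-Db1 (the rat counterpart of HLA-DR) and RT1-Ba with RT1-Bb (the counterpart of HLA-DQ). Cd74, the invariant chain, guides the pair to the endosome and fills its groove until RT1-DM, the pair of RT1-DMa and RT1-DMb, exchanges the remaining fragment for a peptide, and Ciita is the transactivator that switches the whole group on. Dendritic cells, B cells and macrophages are the classical class II-expressing cells, and microglia, the resident macrophages of the cord parenchyma, are known to carry little class II at rest.

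Class II promoters share a short regulatory stretch, in which an X box is followed by a Y box, and it is shown here because Ciita acts through the proteins bound there. Promoter sequence (250 bases before to 50 after the start site, RefSeq, build GRCr8) was at hand for 6 members. The X core was searched as GNNACNGAT and the Y box as CTGATTGG, on both strands, and a pair was counted where Y followed X on the same strand after 15 to 30 bases, so that the matches did not overlap. Of 33469 promoters of that length, 7.83% held the X core, 3.502% the Y box and 0.0149% the pair. That share is 5 promoters, of which 3 were the members RT1-Da, RT1-Db1 and RT1-Bb, and the others RT1-Db2 and Cdv3. In the stretches below, X and Y are in capitals. RT1-Ba is shown beside them with a Y match alone, and whether it holds an X box of other letters was not searched. In this window RT1-DMa held an X match and no Y, and Cd74 held neither. The letters were chosen with these promoters in view, and a match is a description, not a bound site.
RT1-Da (chr20:4515318-4515378, + strand): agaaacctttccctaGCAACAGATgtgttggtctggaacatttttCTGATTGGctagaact
RT1-Db1 (chr20:4560230-4560290, - strand): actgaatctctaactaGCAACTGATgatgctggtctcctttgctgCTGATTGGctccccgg
RT1-Bb (chr20:4604167-4604227, - strand): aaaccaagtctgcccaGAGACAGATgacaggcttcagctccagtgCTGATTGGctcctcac
RT1-Ba (chr20:4576966-4577026, + strand): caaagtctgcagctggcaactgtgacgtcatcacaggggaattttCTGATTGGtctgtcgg
The Y box started 52, 83, 64 and 46 bases before the start site of RT1-Da, RT1-Db1, RT1-Bb and RT1-Ba, and 20 or 21 bases lay between X and Y where both were found.

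The libraries held 31482153 to 131045446 UMIs (unique molecular identifiers, 1 per captured transcript), and 55451 of the deposited cells passed the quality limits. Each kept cell was assigned to a type by marker genes that include no member: 323 cells were gated as dendritic, 341 as B, 20962 as macrophage and 5513 as microglia, and 7309 reached no gate. Conventional dendritic markers such as Flt3, Xcr1 and Clec9a summed to 550 CPM (UMIs scaled to a common total per sum of cells) in the cells of that gate against 18.2 to 20.9 CPM in lipid-laden and border-type macrophages. With the libraries pooled, B markers reached 2146 CPM in gated B cells and at most 1.51 CPM in the dendritic, microglia and macrophage gates. In single libraries they reached 2.84 CPM in microglia and 5.11 CPM in macrophages. That a gate was high in its own markers was set by the assignment and does not test it. The sham libraries stood apart from each other: 72.4% of the kept cells of sham replicate 2 were microglia against 1.63% of replicate 1, which held 5406 neutrophils and 211 of the 341 B cells. No more than 40 deposited barcodes were shared by any pair of libraries, at most 0.452% of the smaller one.

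The class II genes were highest in dendritic cells and then in B cells, followed by plasmacytoid dendritic cells, macrophages and microglia in that order of median CPM for RT1-Da, RT1-Db1, RT1-Ba, RT1-Bb and Cd74. The order is among these 5 types, since T and NK cells, with a few class II-rich cells each, had median RT1-Da levels of 160 and 485 CPM. Levels are given as CPM in the sum of all gated cells of a library, for libraries with at least 20 such cells, which were the 6 injured libraries for dendritic cells and 3 libraries (sham replicate 1 and both severe ones) for B cells. RT1-Da, the DR-type alpha chain, stood at 9018 and 9860 CPM in the dendritic cells of the mild libraries, 6907 and 9607 CPM in the moderate ones and 22456 and 18465 CPM in the severe ones. For RT1-Da the severe libraries were above all others in dendritic cells. The group mean was also highest in severe for RT1-Db1 and RT1-Ba. It was highest in mild for Cd74 (35243 against 28026 CPM in severe) and RT1-Bb (5237 against 3168 CPM). Groups were not tested in dendritic cells, and the share of all genes separated this way was not counted. In B cells RT1-Da stood at 3047 CPM in sham replicate 1 and at 6845 and 8947 CPM in the severe libraries. In macrophages it ranged from 115 to 592 CPM with a median of 306 CPM over 8 libraries, and in microglia from 19.1 to 455 CPM with a median of 55.8 CPM. The RT1-Da ranges of dendritic cells and macrophages did not overlap, whereas those of macrophages and microglia did. How many of all genes separate these types in this way was not counted.

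**Figure D1:**
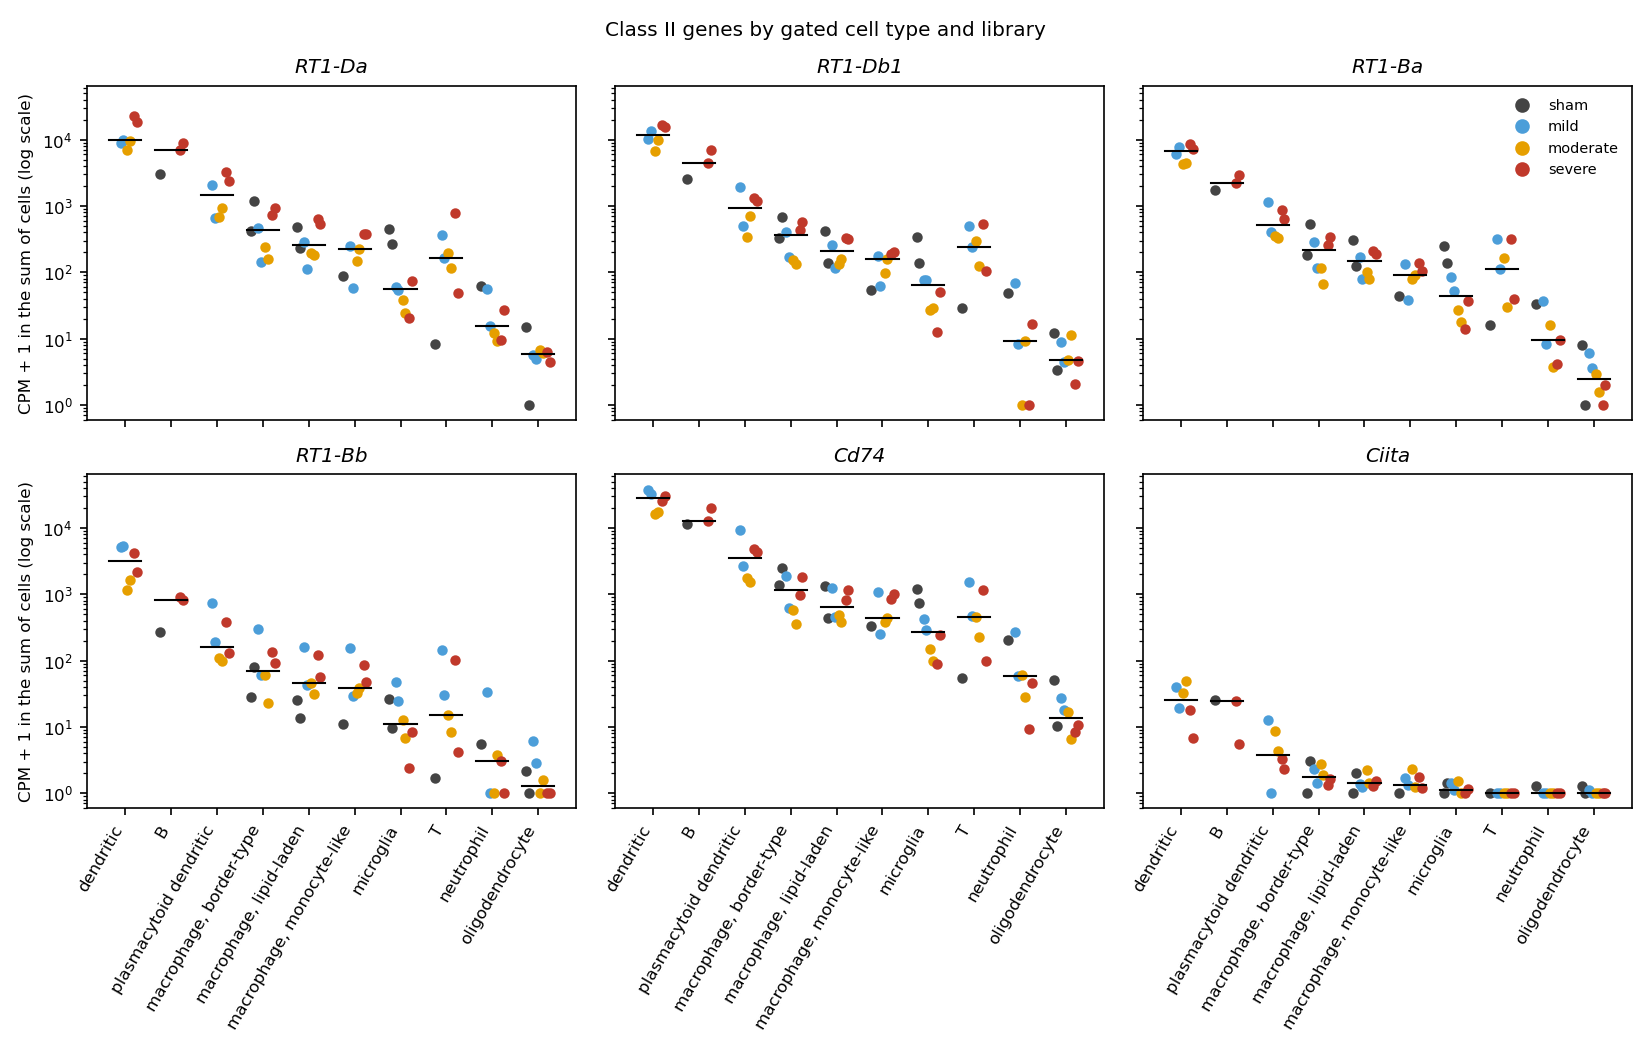
Each point is the level of a class II gene (CPM + 1, log scale) in the summed cells of 1 gated type in 1 library with at least 20 such cells, coloured by group, and the bars are medians over libraries. Dendritic and B cells sit at the top for RT1-Da, RT1-Db1, RT1-Ba, RT1-Bb and Cd74, and Ciita rises above a few CPM almost only in dendritic, B and plasmacytoid dendritic cells.

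The chain that pairs with RT1-Da followed the same order. RT1-Db1 reached 11993 ± 3725 CPM (SD, n = 6 libraries) in dendritic cells, 4639 ± 2223 CPM (n = 3) in B cells, 235 ± 87.3 CPM (n = 8) in macrophages and 92.5 ± 107 CPM (n = 8) in microglia. RT1-Db2, a near copy of RT1-Db1, was left with 201 UMIs in all kept cells beside 143348 for RT1-Db1, and how reads shared by such copies were split was not tested. RT1-Ba, the DQ-type alpha chain, reached 6350 ± 1719 CPM in dendritic cells, 2278 ± 594 CPM in B cells, 158 ± 64.6 CPM in macrophages and 76.4 ± 80.9 CPM in microglia. Its partner RT1-Bb reached 3263 ± 1850, 664 ± 348, 66.0 ± 54.2 and 16.4 ± 14.9 CPM in the same types. Cd74, the invariant chain, reached 26706 ± 8615, 14823 ± 4641, 849 ± 366 and 404 ± 389 CPM. Plasmacytoid dendritic cells stood between B cells and macrophages, with RT1-Da at 1648 ± 1061 CPM and Cd74 at 4094 ± 2926 CPM (n = 6).

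Between types the differences were tested on UMI sums with edgeR's quasi-likelihood test, with the library as a block and Benjamini-Hochberg adjustment over 10586 genes. Many genes differed in these contrasts, so the members are read against that background. In dendritic cells against macrophages, 6 of the 7 members tested were higher, with log2 fold changes of 5.25 (SE 0.32) for Cd74 to 5.89 (SE 0.40) for RT1-Db1, while 44.7% of all genes tested were called. The median log2 fold change was 5.44 over the 7 members and -0.14 over all genes tested. In each of the 6 libraries RT1-Da was 29.3 to 86.0 times as high in dendritic cells as in macrophages. In B cells against macrophages the same 6 members were called higher, with log2 fold changes of 2.87 (SE 0.44) for RT1-Bb to 5.06 (SE 0.81) for Ciita, beside 48.8% of all genes. With at least 100 cells per sum, when B cells came from sham replicate 1 alone, 2 members were called. With at least 20 cells per sum, the median was 2.96 over the members and -0.39 over all genes.

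Dendritic cells also exceeded B cells in the 5 abundant members, by log2 fold changes of 1.96 (SE 0.42) for Cd74 to 2.68 (SE 0.48) for RT1-Ba, with 30.4% of all genes called. Only the severe libraries held both types, and in both of them each of the 5 genes was higher in dendritic cells. Without the library as a block, only 2 of the 5, RT1-Ba and RT1-Bb, were called. In macrophages against microglia, 6 members were higher by log2 fold changes of 1.34 (SE 0.48) for Ciita to 2.08 for RT1-Da (SE 0.38) and RT1-Bb (SE 0.33), beside 41.1% of all genes. The Ciita call was lost with a gate of 3 markers (adjusted p = 0.0992), without the library as a block (0.188), and when sham replicate 2, mild replicate 2, moderate replicate 1 or severe replicate 1 was left out (0.0563 to 0.0839). The order held in 7 of 8 libraries for each of the 5 abundant members and turned in sham replicate 1, where RT1-Da in macrophages was 0.668 times its level in microglia. That ratio reached 30.9 in the highest library. The fit averages over sham and injured libraries. In sham alone the mean levels of macrophages and microglia were close, at 422 against 362 CPM for RT1-Da, 213 against 193 CPM for RT1-Ba and 1012 against 971 CPM for Cd74.

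**Figure D2:**
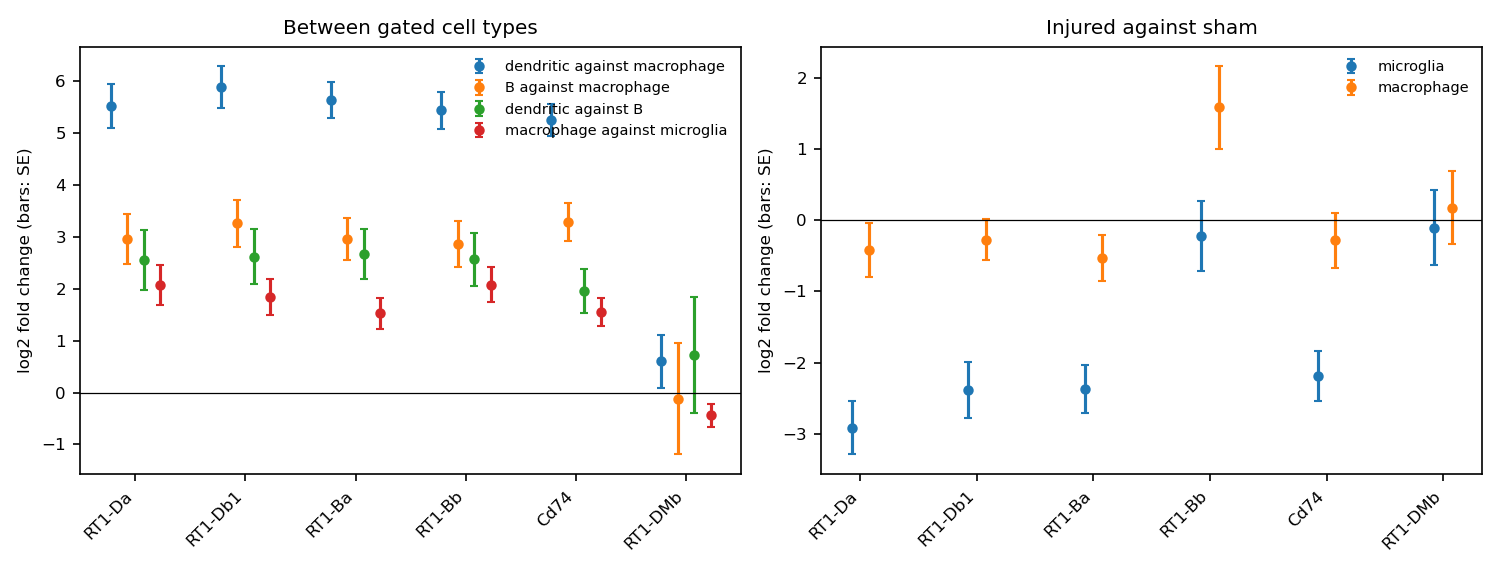
Points are log2 fold changes fitted by edgeR for 6 class II genes, with bars of 1 SE, on the left between gated cell types and on the right between injured and sham libraries within a type. RT1-Da, RT1-Db1, RT1-Ba, RT1-Bb and Cd74 lie above 0 in every type contrast, and in microglia RT1-Da, RT1-Db1, RT1-Ba and Cd74 lie between -2.92 and -2.19 after injury.

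Ciita was a rare transcript, with 396 UMIs in all kept cells. It stood at 38.4, 18.0, 31.6, 48.7, 17.0 and 5.86 CPM in the dendritic cells of the mild, moderate and severe libraries, on 4 to 19 UMIs each. In the B cells it stood at 24.4 CPM in sham replicate 1, on 15 UMIs, and at 24.0 and 4.55 CPM in the severe libraries, on 2 and 1 UMIs. Macrophages stayed at or below 1.34 CPM and microglia at or below 0.542 CPM. The dendritic and B values overlapped, and the fitted log2 difference of 0.26 (SE 0.76) between them was not called (edgeR, adjusted p = 0.839).

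The RT1-DM pair was counted rarely in every type. Whether the annotation used for counting misses the 3′ ends of these genes was not tested, so their low values, the limits included, describe what was counted and not how much RNA the cells held. RT1-DMa had 42 UMIs in all kept cells, none of them in the 323 dendritic cells, which allows a share of cells with a UMI of up to 0.929%, and none in the 341 B cells, which allows up to 0.880%. These limits pool the cells of all libraries and cover counting error only, not the spread between libraries. RT1-DMb, with 884 UMIs, stood at 2.36 ± 2.34 CPM in dendritic cells, 2.05 ± 0.83 CPM in macrophages and 3.22 ± 1.52 CPM in microglia, and differed in none of the 4 type contrasts (adjusted p from 0.116 to 0.938, edgeR), although with library-size scaling it was called lower in macrophages than in microglia (-0.57, adjusted p = 0.0410). Across 84 sums of a type and library, the log2 levels of RT1-Da, RT1-Db1, RT1-Ba, RT1-Bb and Cd74 correlated with each other at Pearson r of 0.933 to 0.977, whereas RT1-DMa correlated with them at -0.111 to -0.071 and RT1-DMb at 0.412 to 0.459. These correlations describe the sums, which share libraries and differ in depth, and low counts limit those of RT1-DMa.

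Within a type, class II was spread over most dendritic and B cells, while only a small part of the macrophages reached high levels. At full depth, 57.7% of macrophages, 72.6% of microglia and 24.9% of oligodendrocytes had a UMI of any member. After each cell was thinned to 1000 UMIs, 93.9 ± 7.1% of dendritic cells (SD, n = 6 libraries) and 95.01 ± 5.97% of B cells (n = 3) had a UMI of any member. In macrophages the share was 25.8 ± 5.2% and in microglia 27.3 ± 14.8% (n = 8 each). It was 2.31 ± 1.37% in oligodendrocytes of sham and injured libraries together, a type that lacks class II at rest and was taken as a background. Neutrophils, also outside the classical class II types, stood higher, at 7.45 ± 4.18% (n = 7) and up to 14.6% in a single library. The background thus differed between types. The median depth before thinning was 7384 to 18025 UMIs in oligodendrocytes and 6101 to 18971 in macrophages. A level of at least 20 member UMIs per 1000 was reached by 83.0 ± 10.5% of dendritic, 72.3 ± 18.8% of B, 2.88 ± 1.52% of macrophage and 0.287 ± 0.340% of microglial cells. Over all libraries, the richest 5% of the macrophages held 71.7% of the class II UMIs of that gate, while the richest 5% of dendritic cells held 14.98%. The 95% Wilson intervals of these shares in single libraries reached at most ±12.6 percentage points and, as those below, cover counting error only.

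The class II-rich macrophages are described by their other markers; that they carry macrophage markers was set by the gate. The 552 macrophages with at least 20 member UMIs per 1000 had summed conventional dendritic markers of 36.5 CPM, against 17.9 CPM in the other 20410 macrophages and 550 CPM in gated conventional dendritic cells. Their lipid-laden markers, such as Fabp4 and Gpnmb, summed to 2878 CPM against 5183 CPM in the others, and their monocyte-like markers to 355 against 684 CPM. Border-type markers were lower in them as well, at 627 against 762 CPM. Mature dendritic markers summed to 16.3 against 4.69 CPM and B markers to 2.02 against 0.354 CPM. The part of cells or RNA of these other types in the class II-rich macrophages was not tested. Of the 3 macrophage gates, border-type cells (Mrc1, Cd163) had the highest median, with RT1-Da at 436 CPM, followed by lipid-laden cells at 258 CPM and monocyte-like cells at 219 CPM. Their ranges overlapped, and border-type cells exceeded lipid-laden ones in 6 of 8 libraries.

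Few cells therefore held much of the class II RNA. Dendritic cells made up at most 1.48% of the kept cells of a library and held 9.68% to 42.0% of its class II UMIs in the injured groups, with a mean of 23.7 ± 11.2% (SD, n = 6). In sham, where replicate 1 held no and replicate 2 only 3 gated dendritic cells, they held 0% and 2.78%. Macrophages held 49.7 ± 13.8% of the class II UMIs in the injured libraries against 22.9% and 19.96% in sham. Their mean share over all libraries was 42.6% of the class II UMIs, beside 35.5% of the kept cells and 45.8% of all UMIs. Microglia held 69.2% in sham replicate 2 and 12.1% in replicate 1, and 0.147% to 5.70% after injury. B cells held 35.9% in sham replicate 1 and at most 2.96% in the injured libraries. The cells of a library are those that survived dissociation, so the shares follow its mix of cells, which differed widely between the sham libraries.

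**Figure D3:**
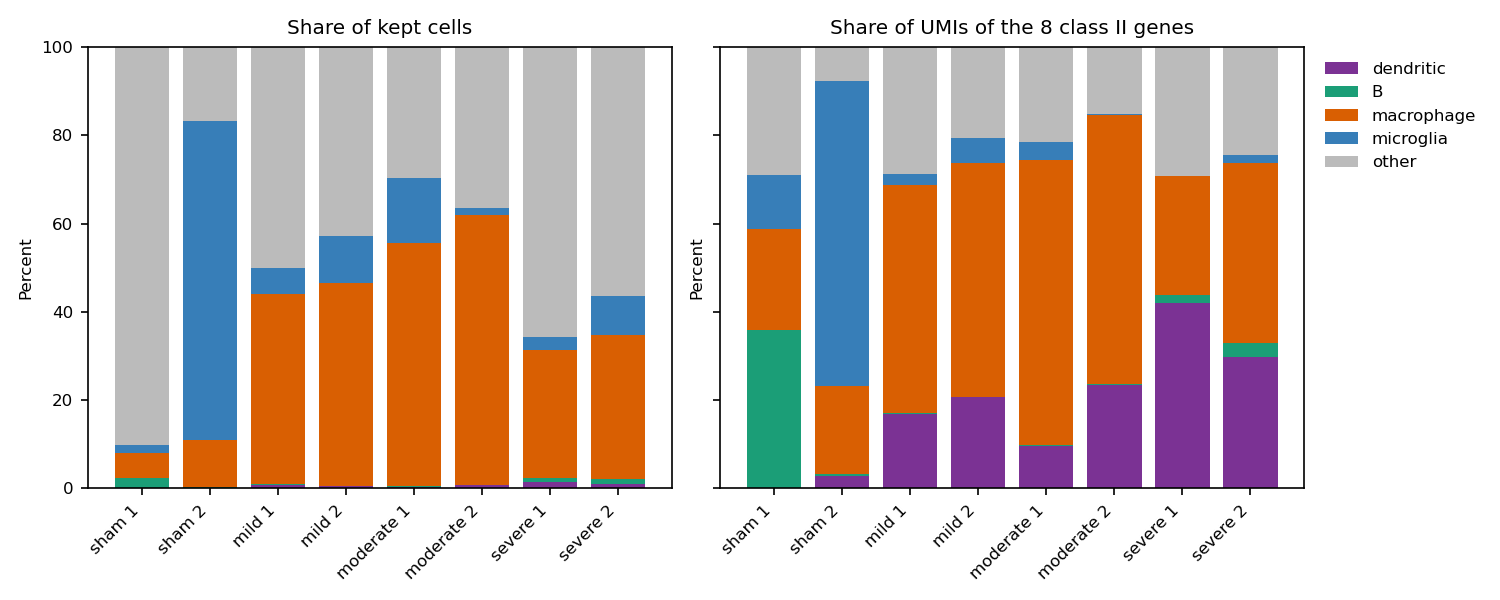
Stacked bars give, for each library, the percent of kept cells (left) and the percent of the UMIs of the 8 class II genes (right) by gated type. In the injured libraries dendritic cells take a thin band of at most 1.48% on the left and 9.68% to 42.0% on the right.

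The richest 1% of all kept cells, 555 cells with at least 507 class II UMIs per 10000, held 176 of the 241 conventional dendritic cells, 25 of the 82 mature dendritic cells and 25 of the 341 B cells. Another 182 of them, or 32.8%, were cells that reached no gate, and 136 were macrophages. Among the ungated cells, those with at least 20 class II UMIs per 1000 had dendritic markers of 104 CPM (conventional) and 69.3 CPM (mature) and B markers of 81.3 CPM, against 16.9, 11.2 and 1.73 CPM in the other ungated cells. No microglial cell was among the 555.

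Injury went with lower class II RNA in the cells gated as microglia. This gate used P2ry12, Tmem119, Gpr34, P2ry13, Cx3cr1, Sall1, Slc2a5 and Olfml3. Microglia that had lost these markers would fall outside it, and whether any did was not tested. In the sham libraries RT1-Da stood at 455 and 269 CPM, and after injury at 58.3 and 53.3 CPM (mild), 36.5 and 23.4 CPM (moderate) and 19.1 and 72.5 CPM (severe). Both sham values lay above all 6 injured ones. RT1-Db1 fell from 337 and 137 CPM in sham to between 11.3 and 76.0 CPM, and RT1-Ba from 248 and 138 CPM to between 12.8 and 84.1 CPM. Cd74 stood at 1216 and 726 CPM in sham and at 423, 292, 148, 98.7, 86.5 and 244 CPM in the mild, moderate and severe libraries. These 4 genes were the members whose sham and injured values did not overlap, a separation that 8.98% of genes with at least 50 UMIs in microglia showed in this direction.

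The mean of the 3 injured groups against sham was tested with edgeR over 10756 genes, of which 1.67% were called, 1.23% as lower. Of 6 members tested, 4 were called, all lower. RT1-Da fell by 2.92 on the log2 scale (SE 0.37, adjusted p = 0.00797), RT1-Ba by 2.37 (SE 0.34, adjusted p = 0.0145), Cd74 by 2.19 (SE 0.36, adjusted p = 0.0215) and RT1-Db1 by 2.38 (SE 0.39, adjusted p = 0.0216). The median log2 fold change was -2.28 over the 6 members and -0.07 over all genes tested. RT1-Bb (log2 fold change -0.22, SE 0.49, adjusted p = 0.835) and RT1-DMb (-0.10, SE 0.52, adjusted p = 0.939) were not called. RT1-DMa and Ciita were too rare to be tested. With 1 library at a time left out, RT1-Da ranged from -3.39 to -2.69 and RT1-Ba from -2.74 to -2.10. Cd74 ranged from -2.53 to -1.98 and RT1-Db1 from -2.92 to -1.84. The calls of Cd74 and RT1-Db1 were lost without mild replicate 1, mild replicate 2 or moderate replicate 2. That of RT1-Db1 alone was lost without moderate replicate 1. A group left with 1 library has no spread of its own, so the calls that held are not read as support.

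The single injured groups share the sham libraries and gave fewer calls. Mild against sham called no member by edgeR (RT1-Da at -2.66, SE 0.53, adjusted p = 0.0518), beside 0.818% of all genes. DESeq2 called 4 there, and its share of all genes called is not given here. Moderate against sham called RT1-Da (-3.57, SE 0.56) and RT1-Ba (-3.14, SE 0.50), both at an adjusted p of 0.0408, beside 0.214% of all genes. Severe against sham called RT1-Ba (-2.51, SE 0.48, adjusted p = 0.0319) and RT1-Da (-2.52, SE 0.53, adjusted p = 0.0475), beside 1.51%. These single-group calls depended on the libraries. The moderate ones were lost without either mild or either moderate library. The severe ones were lost without either severe library and did not both hold without either mild or either moderate library. Without either sham library, sham had no spread of its own, so the calls of those fits are not read as support. Severe against mild called no member, beside 2.35% of all genes. The fitted differences there ranged from -2.31 (SE 0.61, adjusted p = 0.0859, edgeR) for RT1-Bb to 0.17 (SE 0.63) for RT1-DMb. Their median over the 6 members was -0.79, and RT1-Da differed by 0.15 (SE 0.50).

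Other markers moved with this contrast in the microglia gate. The 8 microglia markers summed to 835 and 1047 CPM in sham and to 494 to 663 CPM after injury, and the lipid-laden macrophage markers to 519 to 692 CPM in sham and 725 to 2046 CPM after injury. Border-type markers lay at 139 to 237 CPM in sham and 238 to 458 CPM after injury. Neutrophil markers lay at 144 to 2339 CPM in sham and 42.8 to 136 CPM after injury and endothelial markers at 11.3 to 40.03 and 6.38 to 9.73 CPM, lower after injury as class II was. T markers lay at 7.40 to 7.43 and 8.98 to 15.1 CPM. The conventional dendritic markers overlapped, at 14.92 to 20.02 CPM in sham and 9.22 to 33.4 CPM after injury. Mature dendritic markers overlapped too but reached higher in sham, at 13.04 to 50.33 against 10.92 to 19.23 CPM after injury. Plasmacytoid dendritic markers did likewise, at 60.66 to 180.72 CPM in sham and 36.76 to 77.81 CPM after injury. B markers stayed at or below 2.84 CPM. The part of these shifts in the class II result was not tested. In every library the 4 called genes were higher in microglia than in oligodendrocytes, by at least 2.70 times for RT1-Db1, 3.70 times for RT1-Da, 9.32 times for Cd74 and 13.5 times for RT1-Ba. Per cell thinned to 1000 UMIs, a class II UMI was found in 55.3% and 35.5% of the sham microglia and in 37.1%, 26.7%, 16.6%, 10.6%, 15% and 21.2% of those of the mild, moderate and severe libraries. At least 5 such UMIs were found in 15.3% and 7.89% of the sham microglia and in at most 2.73% after injury.

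**Figure D4:**
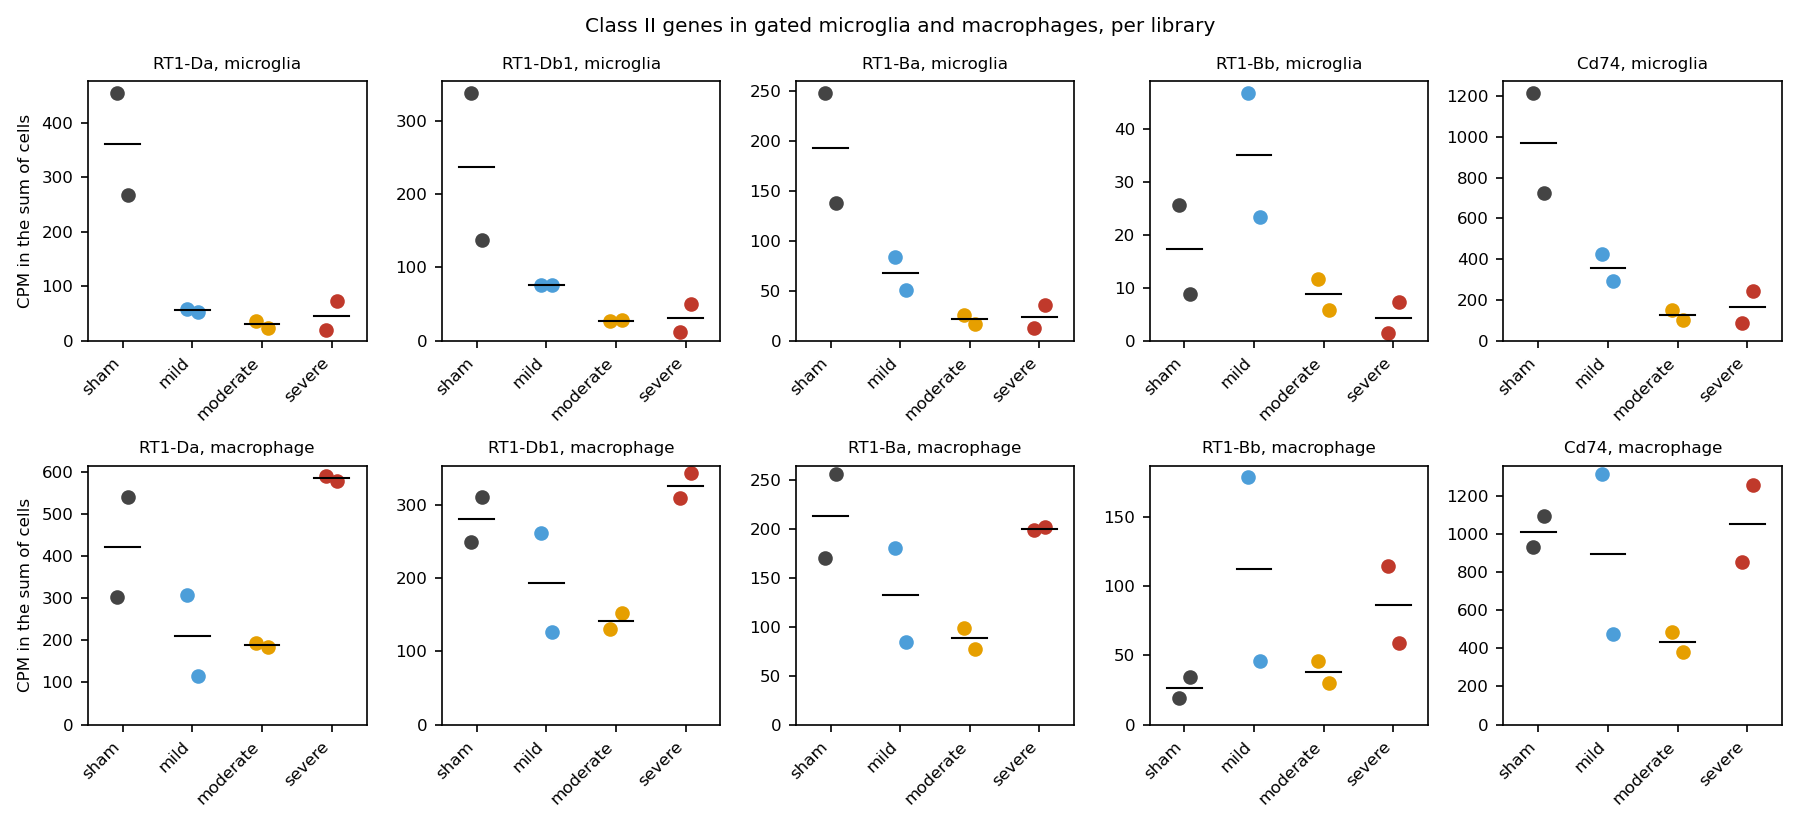
Points are single libraries, bars are group means, and the y axes give CPM in the summed microglia (top) or macrophages (bottom) from 0. In microglia both sham libraries lie above all injured ones for RT1-Da, RT1-Db1, RT1-Ba and Cd74. In macrophages the sham values overlap the range of all injured ones for these genes, although the moderate libraries lie below sham.

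In macrophages no member showed that separation, which 1231 of the 13198 genes counted did. Its absence in so few genes is not read as a result about the members. RT1-Da stood at 304 and 541 CPM in sham, 308 and 115 CPM in mild, 194 and 183 CPM in moderate and 592 and 579 CPM in severe, so that the moderate libraries lay below and the severe ones above sham. How many genes show that order was not counted. Cd74 stood at 930 and 1093 CPM in sham, 1313 and 477 CPM in mild, 485 and 383 CPM in moderate and 851 and 1258 CPM in severe. None of 7 members was called by edgeR among 13987 genes when the injured groups were set against sham together (1.51% of all genes called). The fitted changes ranged from -0.53 (SE 0.32) for RT1-Ba to 1.58 (SE 0.58, adjusted p = 0.171) for RT1-Bb. RT1-Da changed by -0.42 (SE 0.38, adjusted p = 0.542). None was called in mild or moderate against sham, where 0% of all genes passed, although 3392 and 2250 genes had an unadjusted p under 0.05. None was called in severe against sham (1.93% of genes) or in severe against mild (2.35%), where RT1-Da had the highest fitted difference, 1.82 (SE 0.49, adjusted p = 0.0998). DESeq2 called 1, 1, 1, 1 and 2 members in these 5 contrasts. In injured against sham its call was RT1-Bb, higher by 1.53 (adjusted p = 0.0437, DESeq2). The share of all genes that DESeq2 called is not given here, so these counts are not read as a result about the members. Lipid-laden markers in the macrophages summed to 1222 to 2290 CPM in sham and 4157 to 6010 CPM after injury, and their part in these values was not tested.

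Whether injury changed class II differently in microglia and macrophages was fitted as a difference of effects, chosen after the values above were seen. No member was called among 12584 genes, of which 0.0556% passed. RT1-Da differed by -2.43 (SE 0.65) and Cd74 by -1.83 (SE 0.48), each at an unadjusted p of 0.0028 to 0.0029 and an adjusted p of 0.263. The difference between the 2 types is thus not established by this test.

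RT1-Bb varied between libraries relative to its partner chain. In macrophages it stood at 19.1 and 34.1 CPM in sham, 179 and 45.7 CPM in mild, 46.0 and 29.8 CPM in moderate and 114 and 59.3 CPM in severe. Set against RT1-Ba in the same cells, RT1-Bb gave 0.112 and 0.133 UMIs per RT1-Ba UMI in sham macrophages and 0.996, 0.540, 0.465, 0.385, 0.577 and 0.294 in those of the mild, moderate and severe libraries. The sham libraries were below all injured ones, and how often other pairs of genes separate in this way was not counted. The dendritic cells of the same 6 injured libraries gave 0.842, 0.703, 0.268, 0.364, 0.495 and 0.297, and the B cells 0.155 in sham replicate 1 and 0.411 and 0.281 in the severe libraries. The ratio was thus low in B cells, macrophages and microglia of sham replicate 1 alike (0.104 to 0.155) and high in 4 types of mild replicate 1 (0.556 to 0.996). Microglia of severe replicate 1, with 2 RT1-Bb and 18 RT1-Ba UMIs, fell at 0.111. The ratio of RT1-Da to RT1-Db1 ranged less widely, from 0.913 to 1.91 in macrophages. Differences between rats and between groups cannot be told apart here.

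**Figure D5:**
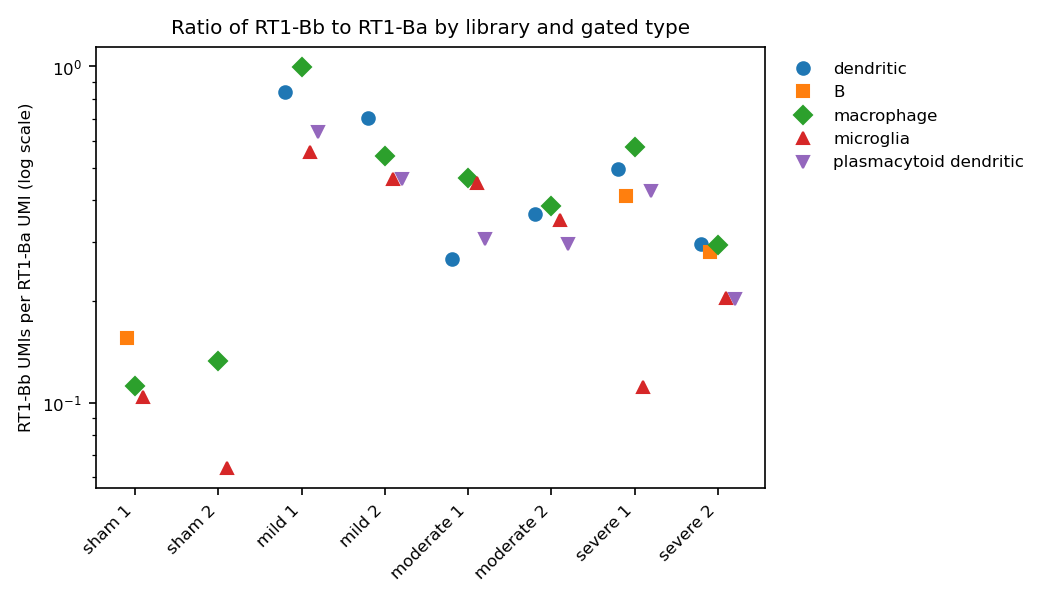
Points give RT1-Bb UMIs per RT1-Ba UMI (log scale) in the summed cells of a gated type in each library. The sham libraries lie at 0.0638 to 0.155 and mild replicate 1 at 0.556 to 0.996, and the types of severe replicate 1 are spread from 0.111 to 0.577.

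The other genes of the pathway were counted from lists of the genes around class II. Of 4 peptide editing and turnover genes tested, 2 were higher in dendritic cells than in macrophages and 3 higher and 1 lower in B cells than in macrophages, where 44.7% and 48.8% of all genes were called. RT1-DOa and RT1-DOb, which form the inhibitor of RT1-DM, were higher than in macrophages by log2 fold changes of 7.25 (SE 0.27) and 5.83 (SE 0.29), and in B cells by 6.56 (SE 0.38) and 6.05 (SE 0.46). Of 6 transactivation genes tested, 2 were higher and 1 lower in dendritic cells than in macrophages, with Rfx5, which binds the X box, higher by 1.85 (SE 0.28), and 4 were higher in B cells. Shares of 3 in 6 or 2 in 4 are near those over all genes. Of 6 endosomal proteases and reductases tested, 5 were lower and only Ifi30 (0.50, SE 0.13) higher in dendritic cells than in macrophages, with Ctsb at -3.13 (SE 0.28), Lgmn at -2.75 (SE 0.24) and Ctss, which cleaves the invariant chain, at -0.99 (SE 0.17). All 6 were lower in B cells than in macrophages. Among 4 co-stimulatory genes tested, Cd80 (2.75, SE 0.30) and Cd86 (1.46, SE 0.19) were higher in dendritic cells than in macrophages.

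In microglia, 5 pathway genes passed the test in injured against sham, where 1.67% of all genes did, all lower: Ctss by -1.995 (SE 0.326), March1, a ligase that marks class II for turnover, by -2.52 (SE 0.50), Sppl2a, which cleaves the last fragment of Cd74, by -1.02 (SE 0.21), Cd80 by -1.57 (SE 0.33) and Cd4 by -1.92 (SE 0.38). They came from 1 of 6 processing genes, 2 of 3 editing and turnover genes, 1 of 4 co-stimulatory genes and 1 of 2 class II receptors tested. None of 6 transactivation, 6 interferon-gamma signalling or 7 class I pathway genes tested was called. In mild against sham (0.818% of all genes called) Cd4 (-2.82, SE 0.52) and Sppl2a (-1.41, SE 0.27) were lower, and in moderate against sham (0.214%) no gene of these lists was called. In severe against sham (1.51%) Cd86, a co-stimulatory ligand, was higher by 1.84 (SE 0.32), and in severe against mild (2.35%) Cd86 (1.82, SE 0.32), Cd40 (1.89, SE 0.42) and RT1-A2 (2.06, SE 0.45) were higher. In macrophages only Cd4 (-2.26, SE 0.40, injured against sham, 1.51% of all genes called) and Irf1, an interferon-induced factor (2.17, SE 0.31, severe against mild, 2.35%), were called.

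The genes whose levels over the 84 sums of 14 types followed the mean of the members most closely, among 5287 others with a mean of at least 20 CPM, were RT1-DOa (Pearson r = 0.848), Pkib (0.839), Il21r (0.838), Klhl6 (0.836) and Cytip (0.833). Each was higher in dendritic and B cells than in macrophages and microglia, which follows from their choice by likeness to the members. Pkib, for example, stood at 393 and 623 CPM against 22.6 and 49.6 CPM.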

How the data were processed

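The authors deposited 1 filtered matrix of UMI counts per library, made from reads of the 10x Chromium 3′ kit (version 3) with Cell Ranger (5.0.1 in the headers of the count tables, 6.0.1 in the supplementary methods) against Rnor_6.0, with no normalization. The rest was computed from these counts. Following the study's methods, cells with over 10% mitochondrial UMIs were left out, as were the 7.7% of each library with the highest Scrublet doublet scores (scanpy 1.11.5) and cells outside the mean ± 2 SD of UMIs or genes of their library. This left 55451 cells, of 3069 to 12674 deposited per library. Cells were gated by the list with the highest mean scaled level of log-normalized counts (each marker divided by its 90th percentile, at most 1) and at least 2 markers detected; 7 marker genes had no match by symbol.

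The 8 members and all lists were chosen with earlier results of these data known. Counts were summed per gated type and library (at least 20 cells) and tested with edgeR 4.0.16 (R 4.3.3): TMM, low-count filter, quasi-likelihood test, Benjamini-Hochberg threshold 0.05 over all genes tested. The groups were fitted together for each type, and types were compared with the library as a block. The fits were tested on simulated counts. Median UMIs per kept cell ranged from 2739 to 10819 between libraries, so shares of cells were taken after thinning to 1000 UMIs. Named genes were the members, pathway lists by count, and the 5 genes most alike in pattern. Alternatives were DESeq2 1.42.0, other scaling, filters, gates, quality limits, a replicate block and leaving out each library. RefSeq sequences are of another build (GRCr8) than the counts.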

Additional observations from a re-analysis of the deposited data

How the results depend on the processing

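The call of 6 members in dendritic cells against macrophages held under every alternative that could be run, and the 4 lower members of injured against sham microglia held under every alternative except leaving out a library, which gave 2 to 4. Members called in mild against sham rose from 0 to 4 with DESeq2, 5 without the low-count filter and 1 with a gate of 3 markers, a gate by a lead over the next list, or a mitochondrial limit of 20%. Moderate against sham moved from 2 to 4 with DESeq2, without the filter or with the lead gate, to 1 with library-size scaling, and to 0 without doublet removal or with only the compared groups fitted. Severe against sham moved from 2 to 4 with DESeq2, library-size scaling, no filter, or either gate, to 1 without doublet removal or at 20% mitochondrial UMIs, and to 0 with only the compared groups. Severe against mild called 1 with DESeq2, without the filter, with either gate or with only the compared groups. In macrophages DESeq2 called 1 member against sham in the mild, moderate, severe and injured contrasts, and 2 in severe against mild. Leaving out 1 library at a time gave 0 to 3 (mild), 0 to 4 (moderate), 0 to 4 (severe) and 0 to 1 (severe against mild) in microglia, and 0 to 1 for severe against mild in macrophages. Where a group was left with 1 library, it was assumed to vary like the others. B cells against macrophages called 2 at 100 cells per sum, where dendritic contrasts could not be run, and dendritic against B cells 2 without the library as a block. The macrophage share of class II UMIs was 25.04% and that of other cells 50.1% with the gate of 3 markers, the latter 36.0% with the lead gate, and 19.6% of macrophages had a class II UMI at 500 UMIs per cell. The share of all genes called under each alternative is not given here. The counts of members above therefore describe only how far the calls depend on the setting. The cause was not tested.

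The samples were treated as unpaired. Deviations of same-numbered libraries correlated between groups at -0.251 to 0.178 in microglia and -0.208 to 0.384 in macrophages. In macrophages the pairs among sham, mild and severe lay at 0.179 to 0.384 and those with moderate at -0.208 to -0.103. Whether some of the groups share a pairing was not tested. With the replicate block, microglia called 0, 0, 1, 4 and 0 members in the mild, moderate, severe, injured and severe-against-mild contrasts and macrophages 0.

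Changes of direction fell on values that were not called. In microglia after injury RT1-Bb turned to 0.10 with the lead gate and ranged from -0.90 to 0.43 when 1 library was left out, and RT1-DMb ranged from -0.47 to 0.49. In macrophages after injury RT1-DMb turned to -0.016 with library-size scaling and -0.31 with the gate of 3 markers. When 1 library was left out there, RT1-DMb ranged from -0.052 to 0.30, RT1-Da from -0.83 to 0.20, RT1-Db1 from -0.51 to 0.024 and Ciita from -1.10 to 7.52. RT1-DMb in B cells against macrophages turned to 0.20 with DESeq2, 0.26 with library-size scaling and 0.35 with the lead gate, and ranged from -7.60 to 0.99 when 1 library was left out. In dendritic cells it ranged from -0.39 to 7.39 against B cells and from -0.21 to 0.78 against macrophages. Ciita in dendritic against B cells turned to -0.014 with DESeq2 and -0.31 with library-size scaling, and ranged from -0.46 to 1.25. The extremes of over 7 are of genes at 0 in a group and depend on the prior count. Low counts limited RT1-DMa, RT1-DMb and Ciita, and 2 libraries per group limited every contrast with injury.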

Other observations

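Cells outside the classical class II types also held class II UMIs, in few cells. In T cells RT1-Da stood at 7.23 to 775 CPM with a median of 160 CPM over 7 libraries, and the richest 5% of the T cells held 84.1% of the class II UMIs of that gate. The 8 T cells with at least 20 class II UMIs per 1000 had conventional dendritic markers of 254 CPM against 2.92 CPM in the other 1146. In NK cells the richest 5% held 95.6% of the class II UMIs, and in endothelial cells 98.2%, with RT1-Da at 984 CPM in severe replicate 1 and 8.54 to 59.1 CPM in the other libraries with enough cells. Neutrophils, the most frequent gate after lipid-laden macrophages, stood at 26.2 ± 22.4 CPM of RT1-Da (SD, n = 7) and 95.5 ± 99.2 CPM of Cd74.

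Class I pathway genes were also compared between the types. In dendritic cells against macrophages, where 44.7% of all genes were called, 6 of 7 class I genes tested were higher by edgeR, from RT1-A1 (log2 fold change 0.75, SE 0.13) to the immunoproteasome subunit Psmb9 (1.98, SE 0.13), and B2m was not called (0.13, SE 0.11). In dendritic cells against B cells (30.4% of all genes called) all 7 were higher, by 0.65 (SE 0.24) for Tap1 to 2.06 (SE 0.56) for Psmb8. In B cells against macrophages (48.8%) only Tap1, a peptide transporter subunit, was higher (0.89, SE 0.23), and B2m was lower (-0.61, SE 0.14). In macrophages against microglia (41.1%) only Tap1 was called, and lower (-0.25, SE 0.10).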
